A study of Homo sapiens with 6 samples.

Results

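The genes described here serve the lysosome: 16 genes of the vacuolar proton pump (V-ATPase), 16 genes of cathepsins, other hydrolases and soluble lysosomal proteins, 5 genes of lysosomal membrane proteins, and the transcription factor genes TFEB, TFE3 and MITF. They were taken as a named list of 40 symbols, and each matched 1 row among the 23858 genes of the deposited expression table. The study used NB4, a cell line from human acute promyelocytic leukaemia in which PML is fused to RARA, and compared cells that had received arsenic trioxide for 6 h with control cells, in 3 libraries of each. Arsenic trioxide is a treatment for this leukaemia. Neither its dose nor the origin of the replicates (separate cultures or not) is stated, so that a p-value speaks to the spread among these libraries alone, which may be technical. As both groups are the same line, all results are those of 1 leukaemia cell line at 1 time.

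Lysosomes break down proteins, lipids and sugars with hydrolases that work in acid. The V-ATPase provides that acid: its V1 sector in the cytosol hydrolyses ATP, and its V0 sector in the membrane moves the protons. TFEB, TFE3 and MITF are related transcription factors that bind E-box letters in the promoters of many lysosomal and autophagy genes. They are held in the cytosol when the kinase mTORC1, itself active on the lysosome surface, phosphorylates them, so that much of their control acts on the protein and is not visible in RNA. Only RNA was measured here.

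Expression is in RPKM, read numbers divided by exon length and by library size. The test was limma-trend on log2 of RPKM + 1, in the 16803 genes whose mean reached 1 RPKM, and a gene was called at an adjusted p (Benjamini-Hochberg over these genes) under 0.05. Among all tested genes 25.4% were called, 12.0% higher and 13.4% lower after arsenic trioxide. Of the 40 listed genes 38 passed the filter, and 10 of these rose and 3 fell. TFE3, NPC1, CTSD, PSAP, TPP1 and ATP6V1A rose under all 14 alternative settings tried, among them the omission of any 1 library. The remaining called genes, ATP6V0A1, ATP6V1B2, GLA and MITF among the higher and CTSC, CTSH and CTSS, lost the call in at least 1 setting. Only 6 were higher with arsenic trioxide replicate 1 or control replicate 2 removed. The count of lower genes was 0 with arsenic trioxide replicate 2 removed and 1 with arsenic trioxide replicate 1 or control replicate 1 or 2 removed. Upper quartile scaling, which set the median of all tested genes at 0.03, gave 14 higher and 1 lower. The median log2 fold change was 0.20 over the 38 genes and -0.0033 over all tested genes. All 3 treated libraries lay above all 3 controls in 15 of the 38 genes, against 21.9% of all tested genes, and below them in 4, against 22.6%.

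**Figure D1:**
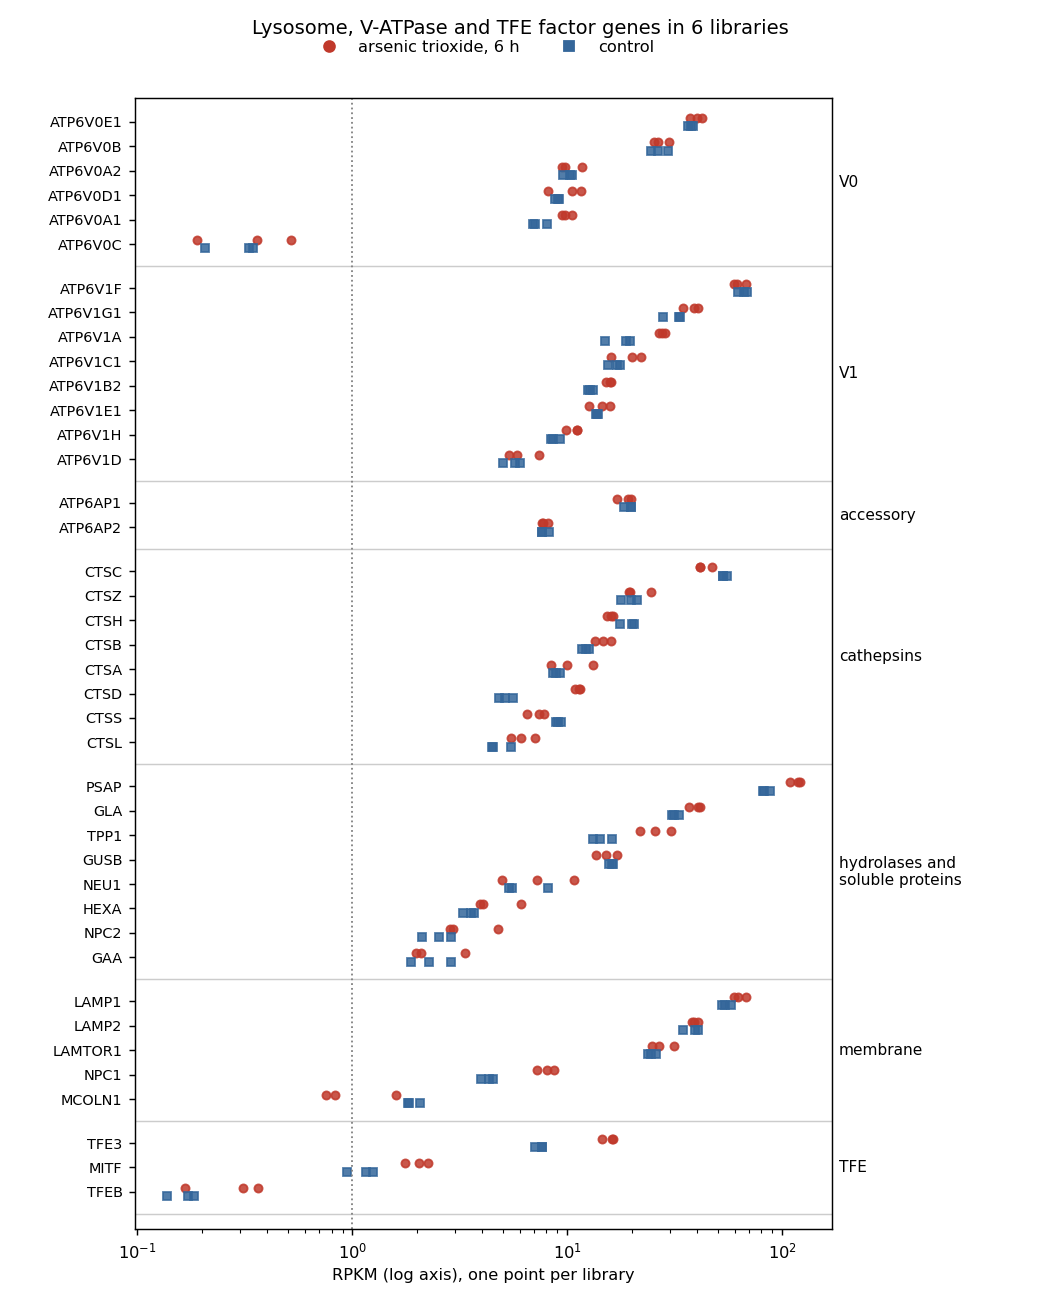
RPKM of the 40 genes (log axis) in the 6 libraries, grouped by role, with red circles for arsenic trioxide and blue squares for control. PSAP, at 109 to 121 RPKM in treated and 80.9 to 88.0 RPKM in control libraries, lies farthest right, and only ATP6V0C and TFEB lie below 1 RPKM (dotted line) in all 6 libraries.

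The library totals were 21185966 to 22300255 reads with arsenic trioxide and 19361333 to 22609019 reads in the controls. The treated and control libraries separated on the first principal component (55.3% of the variance). On the second (15.2%), arsenic trioxide replicate 3 (23.0) and control replicate 1 (21.3) stood apart from the other 4 libraries (-14.8 to -6.85). Among the 38 genes arsenic trioxide replicate 3 was the highest of its group in 23, or 60.5%, where it was so in 41.1% of all tested genes, and replicate 2 was the lowest in 26, or 68.4%, against 33.0%. Of the controls, replicate 3 was most often the highest of its group, in 17 of the 38, or 44.7%, against 28.4% of all tested genes. Control replicate 2 was the lowest in 17, or 44.7%, against 28.5%. Markers of promyelocytes were abundant, with 7 of 8 listed and a summed 694 to 1025 RPKM in treated and 1034 to 1413 RPKM in control libraries. Markers of monocytes and macrophages summed to 9.41 to 15.2 RPKM in treated and 5.84 to 9.27 RPKM in control libraries (3 of 6 listed, mostly VSIG4, with CD14 at 0.235 RPKM or less). VSIG4 averaged 10.1 RPKM in treated and 5.09 RPKM in control cells and was not called. On average CSF1R (1.78 against 2.27 RPKM, not called) and CD14 (0.0888 against 0.158 RPKM, not tested) were lower in treated than in control cells. T cell markers summed to 6.47 to 7.78 RPKM in treated and 8.30 to 13.1 RPKM in control libraries (2 of 5 listed). Of the erythroid markers 1 of 5 was listed, at no more than 0.387 RPKM. The part of these marker levels in the results below was not tested. In bulk samples such as these, fewer cells of a type and less RNA per cell cannot be told apart.

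Of the 3 transcription factor genes, TFE3 was the most abundant, and it showed the smallest p-value of the 38 tested genes. TFE3 (chromosome X, 49028726 to 49043486, GRCh38) had 16.3, 14.5 and 16.1 RPKM in treated libraries, against 7.61, 7.10 and 7.66 RPKM in controls. The groups lay far apart, and each was narrow. Its log2 fold change was 0.98 (standard error 0.08, adjusted p = 0.000647 in limma-trend), with a 95% interval of 0.80 to 1.16. MITF, best known as the master regulator of melanocytes (chromosome 3, 69739435 to 69968337), had 2.04, 2.26 and 1.75 RPKM in treated libraries, against 0.943, 1.16 and 1.25 RPKM in controls. The lowest treated library was above the highest control, on 277 to 344 reads per treated and 137 to 203 reads per control library. Its log2 fold change was 0.51 (standard error 0.14, adjusted p = 0.0341 in limma-trend). That call was lost without any 1 library other than arsenic trioxide replicate 3 (limma-trend adjusted p = 0.0683 to 0.104). The pseudocount of 1 shrinks the change of a gene at this level: with 0.1 it was 0.77, and limma-voom, which weighs the reads by their precision, gave 0.85. The deposited reads are summed per gene, so the MITF transcript forms with different starts cannot be told apart.

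TFEB (chromosome 6, 41683978 to 41736259) was hardly detected, with 0.310, 0.167 and 0.363 RPKM in treated libraries and 0.184, 0.137 and 0.172 RPKM in controls. Those values rest on 20 to 45 reads per treated and 15 to 22 reads per control library, and the groups overlapped. It was below the filter and not tested. Without the filter its log2 fold change of RPKM + 1 was 0.13 (limma-trend adjusted p = 0.232), and the authors' deposited table lists 0.75 with an adjusted p of 0.241. TFE3 made up 87.2% ± 1.36 of the summed RPKM of the 3 genes in treated cells and 85.3% ± 1.53 in control cells (SD, n = 3 each). The share of TFE3 among these 3 genes was thus close in both groups, while their sum was higher after arsenic trioxide.

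The letters that the TFE factors bind were looked up in the promoter windows of RefSeq (GRCh38.p14), 250 bases before to 50 bases after each start. A window was at hand for 30 of the 40 genes. The E-box CACGTG, which reads the same on both strands, stood in the windows of 10 of these 30 genes and of 8.77% of 27305 genes. The longer palindrome TCACGTGA, which contains it, stood in 6 of the 30 genes, against 1.18% of all genes. The 10 genes were ATP6V0B, ATP6V0D1, ATP6V1G1, CTSA, CTSD, GAA, LAMP1, LAMTOR1, MCOLN1 and NEU1. Of these CTSD alone rose, so 1 of the 7 genes with a window that rose held the E-box, 0 of the 2 that fell, and 9 of the 19 that were not called. This split is partial, as no window was at hand for ATP6V1A, ATP6V1B2 and PSAP, which rose, or for CTSS, which fell. The window of TFE3 itself held no CACGTG, but it held TGACTCA, a site known to be bound by AP-1 and related factors, as did those of 6.05% of all genes on either strand and of no other gene of the 30. A match of letters does not show that a factor binds there. Shown here are the called genes CTSD and TFE3 and 4 uncalled genes, LAMP1 for its several copies and ATP6V1G1, GAA and MCOLN1 for the longer palindrome, each from 5′ to 3′ on the strand of the gene, ending before the RefSeq start, with the E-box or TGACTCA in capitals. The stretches of CTSD (28 bases) and TFE3 (29 bases) lie in exons of longer transcripts annotated in GENCODE. Of the 91 bases shown for GAA, 20 lie in an exon annotated there.

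CTSD, chr11:1763958-1763985, minus strand: ccggccgcgccCACGTGaccggtccggg
TFE3, chrX:49043382-49043410, minus strand: tgggcgggggaTGACTCAcagcccatccc
ATP6V1G1, chr9:114587691-114587736, plus strand: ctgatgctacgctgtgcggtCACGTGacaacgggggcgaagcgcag
GAA, chr17:80101485-80101575, plus strand: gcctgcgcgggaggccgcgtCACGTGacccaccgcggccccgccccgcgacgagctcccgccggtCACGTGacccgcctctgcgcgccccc
MCOLN1, chr19:7522563-7522623, plus strand: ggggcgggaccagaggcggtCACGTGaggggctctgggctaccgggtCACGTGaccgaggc
LAMP1, chr13:113297027-113297236, plus strand: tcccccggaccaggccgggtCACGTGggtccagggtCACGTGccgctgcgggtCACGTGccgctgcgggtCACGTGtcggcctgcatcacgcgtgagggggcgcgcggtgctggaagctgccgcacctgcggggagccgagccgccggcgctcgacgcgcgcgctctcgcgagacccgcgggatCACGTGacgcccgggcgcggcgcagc

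The stretch of LAMP1 holds 5 of the 6 copies in its window, the farthest 192 and the nearest 28 bases before the start. The sixth, at the start itself, lies beyond the stretch shown. Those of GAA and MCOLN1 hold 2 each.

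Among the 16 genes of the proton pump, 3 of the 15 tested rose (against 12.0% of all tested genes) and 0 fell (against 13.4%). A positive log2 fold change was found in 12 of the 15, against 8343 of all 16803 tested genes. The median of the 15 was 0.12. ATP6V1A, which encodes the catalytic A subunit that hydrolyses ATP (chromosome 3, 113747019 to 113812056), had 28.5, 26.7 and 27.5 RPKM in treated libraries, against 15.0, 18.7 and 19.5 RPKM in controls. The groups were clearly apart, with control replicate 1 the lowest value. Its log2 fold change of 0.62 (standard error 0.10, adjusted p = 0.00599 in limma-trend) was the largest of the pump. ATP6V1B2, the B subunit that alternates with A in the V1 ring (chromosome 8, 20197367 to 20226819), had 16.0, 15.7 and 15.2 RPKM in treated libraries, against 13.2, 12.5 and 12.7 RPKM in controls. This smaller rise, a log2 fold change of 0.27 (standard error 0.06, adjusted p = 0.0212 in limma-trend), was lost without arsenic trioxide replicate 1 or 2 or control replicate 2 or 3 (adjusted p = 0.0607 to 0.0719). In the V0 sector ATP6V0A1, 1 of the alternative a subunits that form the proton path and steer the pump to its membrane (chromosome 17, 42458844 to 42522611), had 10.5, 9.43 and 9.75 RPKM in treated libraries, against 8.05, 6.89 and 7.08 RPKM in controls. All treated values exceeded all controls, and the log2 fold change was 0.39 (standard error 0.09, adjusted p = 0.0209 in limma-trend). Its call was lost without arsenic trioxide replicate 1 or control replicate 2 or 3 (limma-trend adjusted p = 0.0671 to 0.0716), and without any 1 of these 3 libraries ATP6V1A was the only pump gene called.

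ATP6V0A2, the a subunit linked to the Golgi and endosomes, was at 9.73, 9.49 and 11.7 RPKM in treated libraries and 9.51, 10.6 and 10.3 RPKM in controls. The groups overlapped, with a log2 fold change of 0.02 (95% interval -0.21 to 0.25), where that of ATP6V0A1 was 0.18 to 0.60. ATP6V0A1 made up 49.1% ± 3.31 of the sum of the pair in treated cells and 42.1% ± 3.34 in control cells (SD, n = 3 each), but the treated library at 45.5% and the control at 45.8% overlapped.

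The other V1 genes are subunits of the stalks that join the sectors, and a regulator. ATP6V1G1, a peripheral stalk subunit, had 34.7, 40.6 and 38.9 RPKM in treated libraries, against 33.0, 27.7 and 33.6 RPKM in controls. ATP6V1H, which joins V1 to V0, had 11.1, 9.83 and 11.1 RPKM in treated libraries, against 8.59, 8.42 and 9.26 RPKM in controls. Neither group pair overlapped, but the genes missed the threshold (log2 fold changes 0.27 and 0.25, limma-trend adjusted p = 0.074 and 0.061). Both passed with upper quartile scaling (limma-trend adjusted p = 0.0458 and 0.0375), and over all alternatives the adjusted p reached 0.188 and 0.213. ATP6V1C1 (0.19), ATP6V1D (0.12), ATP6V1E1 (0.06) and ATP6V1F (-0.06, log2 fold changes) had overlapping groups. ATP6V1F was the most abundant gene of the pump, at 63.0 ± 4.13 RPKM in treated and 65.6 ± 3.01 RPKM in control cells (SD, n = 3 each), and 23.7% of its exon bases overlap KCP on the other strand.

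Of the V0 genes, ATP6V0B (0.02), ATP6V0E1 (0.09) and ATP6V0D1 (0.14, log2 fold changes) were not called, and their groups overlapped. ATP6V0C, which encodes the proton-carrying c subunit, was listed at 0.359, 0.189 and 0.516 RPKM in treated libraries and 0.330, 0.345 and 0.207 RPKM in controls, on 6 to 17 reads per library. This is far below its partner subunits, and 72.1% of its exon bases are shared with readthrough genes annotated on the same strand (GENCODE 29). How reads that fit several genes were counted is not stated, so the deposited value may differ from the level of its RNA. It was below the filter and not tested. The accessory genes ATP6AP1 (18.6 ± 1.40 RPKM in treated and 19.2 ± 0.791 RPKM in control cells, SD, n = 3 each) and ATP6AP2 (7.82 ± 0.292 RPKM in treated and 7.84 ± 0.326 RPKM in control cells) had log2 fold changes of -0.05 (95% interval -0.22 to 0.13) and -0.0040 (-0.19 to 0.18).

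**Figure D2:**
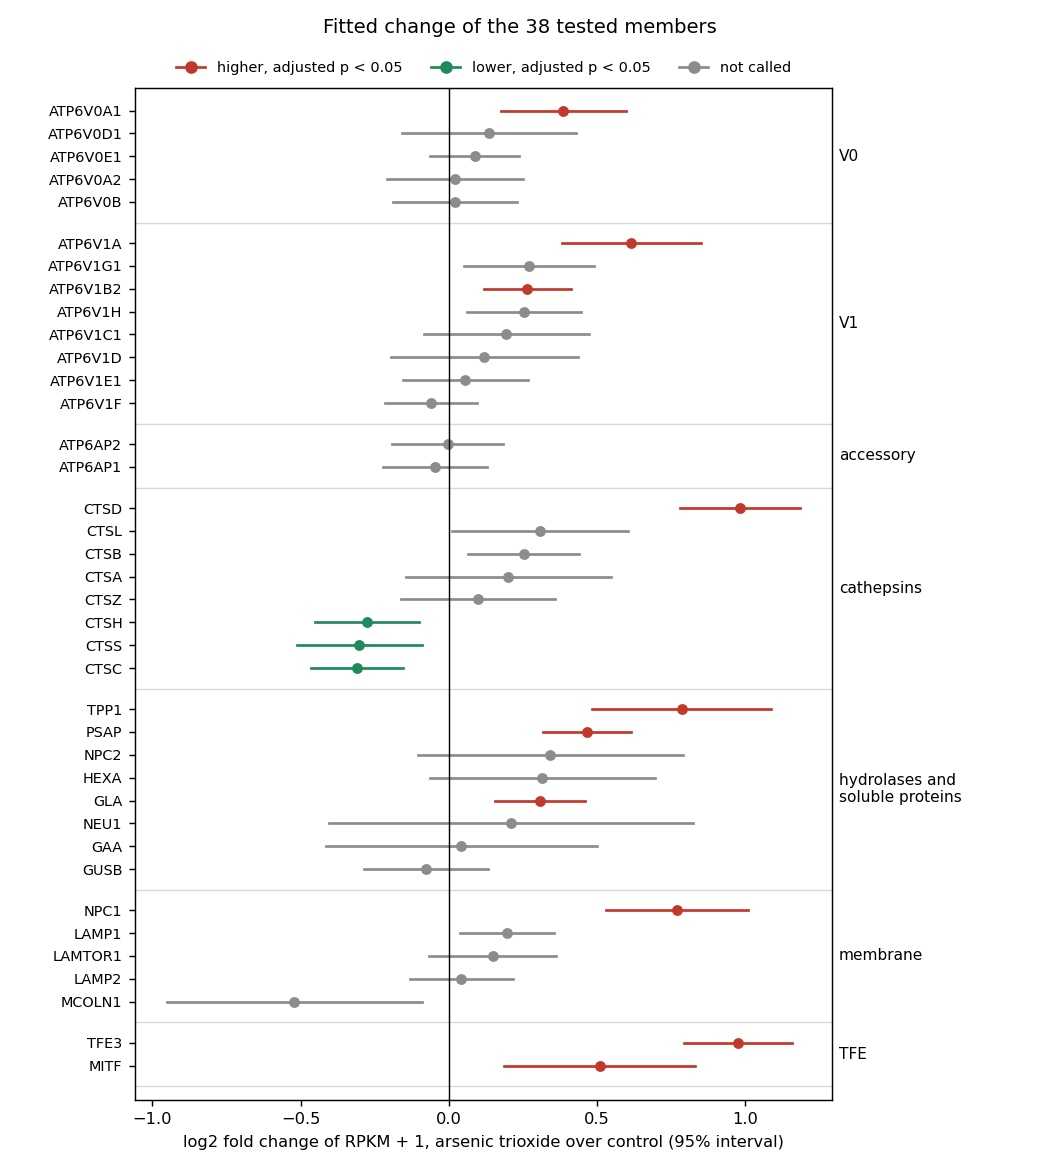
Log2 fold change of RPKM + 1, arsenic trioxide over control, with its 95% interval, for the 38 tested genes grouped by role (red, called higher; green, called lower; grey, not called). CTSD (0.98) and TFE3 (0.98) have the largest values, and the cathepsins CTSH, CTSS and CTSC lie on the other side of 0 (-0.28 to -0.31).

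The cathepsins are the lysosomal proteases, and here 1 of 8 rose (12.5%, against 12.0% of all tested genes) while 3 fell (37.5%, against 13.4%). CTSD, the main aspartic protease of the lysosome (chromosome 11, 1752752 to 1764573), had 11.3, 10.8 and 11.5 RPKM in treated libraries, against 5.61, 4.79 and 5.14 RPKM in controls. No treated value came near a control, and the log2 fold change was 0.98 (standard error 0.09, adjusted p = 0.000857 in limma-trend), a 2.16-fold ratio of means. Its share of the summed RPKM of the 8 cathepsins was 8.62% ± 0.263 in treated and 3.89% ± 0.206 in control cells (SD, n = 3 each). Of the exon bases of CTSD 52.7% are shared with other annotated genes. One of these, the antisense gene AC068580.6, was itself at 2.92, 2.48 and 3.18 RPKM in treated and 0.467, 0.564 and 0.746 RPKM in control libraries. It shares 15.8% of the CTSD exon bases. A larger part, 41.7%, is shared with the protein-coding gene RP11-295K3.1 on the same strand. That gene was at 0.513, 0.383 and 0.890 RPKM in treated and 0.0721, 0.150 and 0.258 RPKM in control libraries. Reads of the shared stretches cannot be told apart. On the same strand no strand label would separate them, and for the antisense gene the libraries carry none.

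CTSC, the dipeptidyl peptidase that activates the serine proteases of neutrophil granules (chromosome 11, 88293592 to 88337787), was the most abundant cathepsin gene. It had 47.0, 41.5 and 41.4 RPKM in treated libraries, against 55.6, 52.8 and 53.2 RPKM in controls. The treated values lay below all controls (log2 fold change -0.31, standard error 0.07, adjusted p = 0.0155 in limma-trend), and the call was lost without arsenic trioxide replicate 2 (limma-trend adjusted p = 0.0515, and 0.00225 to 0.0883 over all alternatives). CTSS, a cysteine protease of antigen-presenting cells (chromosome 1, 150730196 to 150765957), had 6.49, 7.35 and 7.80 RPKM in treated libraries, against 9.37, 8.88 and 9.06 RPKM in controls. CTSH, an aminopeptidase of the same family (chromosome 15, 78921058 to 78949574), had 15.2, 15.9 and 16.3 RPKM in treated libraries, against 19.9, 20.5 and 17.7 RPKM in controls. Again all treated values were the lower ones. Both falls were small (log2 fold changes -0.30 and -0.28, limma-trend adjusted p = 0.0475 and 0.0346). They did not hold when single libraries were left out, since CTSS was called only without arsenic trioxide replicate 3 and CTSH only without control replicate 3. In the same libraries the summed promyelocyte markers, which include the granule protease gene CTSG, were lower after arsenic trioxide, as given above. That sum was mostly MPO (677 RPKM in treated and 940.0 RPKM in control cells on average, not called), and of the 7 listed markers AZU1 alone was called, while CTSG was not. CSF3R went the other way, at 6.56 RPKM in treated and 5.21 RPKM in control cells on average (not called).

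CTSB, an abundant cysteine cathepsin, had 14.7, 13.5 and 15.9 RPKM in treated libraries, against 12.2, 12.6 and 11.7 RPKM in controls. The groups did not overlap, but the call was missed (log2 fold change 0.25, limma-trend adjusted p = 0.0553). It was made without arsenic trioxide replicate 2 (0.0466), with limma-voom (0.0242) and with upper quartile scaling (0.0319, adjusted p throughout), while the highest adjusted p of any alternative was 0.175. CTSL (0.31), CTSA (0.20) and CTSZ (0.10, log2 fold changes) were not called, with overlapping groups. Of the exon bases of CTSA 28.5% are shared with genes on the other strand.

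**Figure D3:**
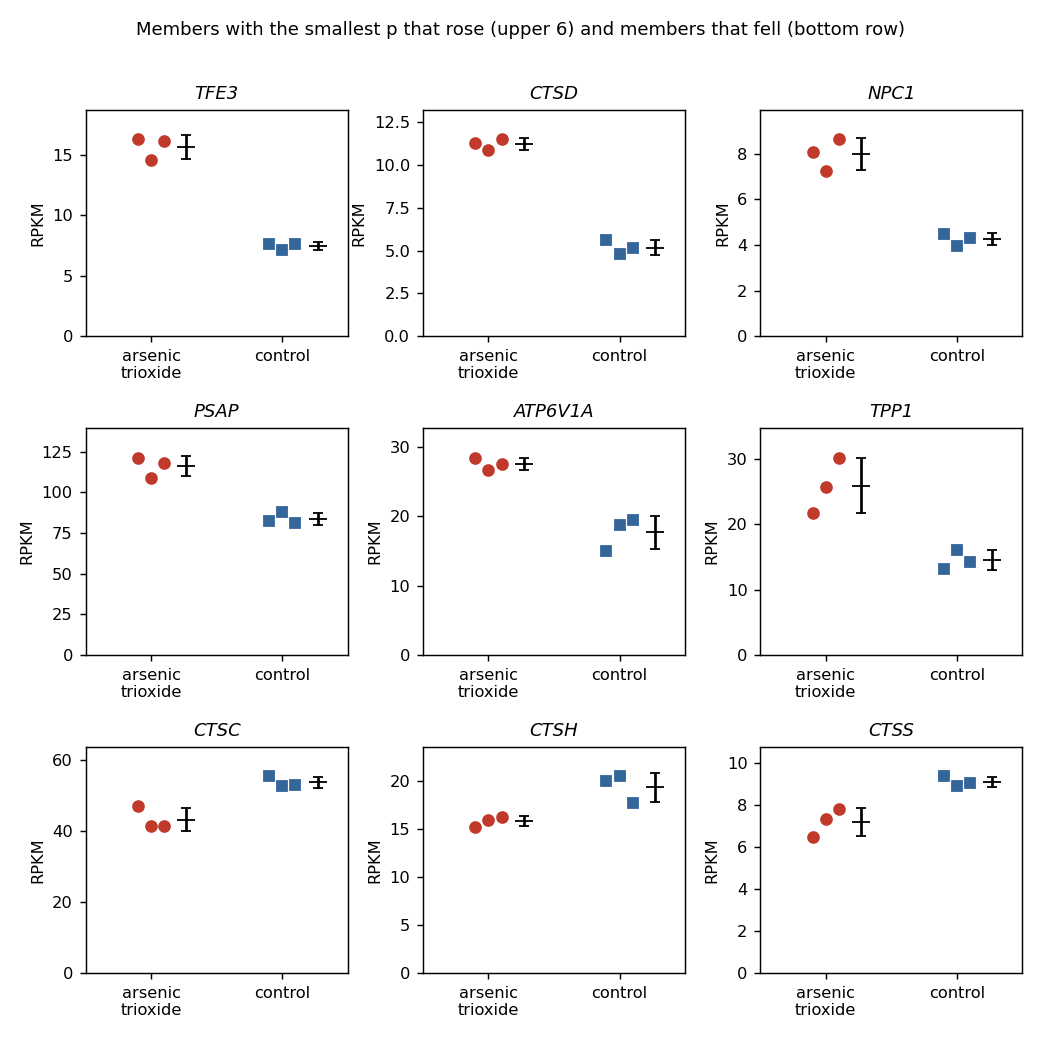
RPKM in each library (points), with the group mean and SD (bar), for the 6 genes with the smallest p-values among those that rose and, in the bottom row, the 3 that fell. In every panel the 3 arsenic trioxide libraries (left, red) and the 3 control libraries (right, blue) do not overlap.

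Of the other hydrolases and soluble proteins, 3 of 8 rose (37.5%, against 12.0% of all tested genes) and 0 fell (against 13.4%). Their median log2 fold change was 0.31. TPP1, a peptidase that removes tripeptides from proteins (chromosome 11, 6612763 to 6619485), had 21.8, 25.7 and 30.2 RPKM in treated libraries, against 13.2, 16.1 and 14.2 RPKM in controls. The treated libraries spread more widely than the controls yet stayed above them (log2 fold change 0.79, standard error 0.13, adjusted p = 0.00612 in limma-trend). Of the exon bases of TPP1 14.4% are shared with other annotated genes, on the same and on the opposite strand. PSAP, the precursor of the saposins that help degrade sphingolipids (chromosome 10, 71816298 to 71851375), was the most abundant of all 40 genes. It had 121, 109 and 118 RPKM in treated libraries, against 82.5, 88.0 and 80.9 RPKM in controls (log2 fold change 0.47, standard error 0.06, adjusted p = 0.00327 in limma-trend). GLA, the alpha-galactosidase that cleaves galactose from glycolipids (chromosome X, 101397803 to 101408012), had 40.6, 36.7 and 41.4 RPKM in treated libraries, against 31.5, 30.8 and 33.0 RPKM in controls. Its smaller rise (log2 fold change 0.31, standard error 0.06, adjusted p = 0.0151 in limma-trend) was lost without arsenic trioxide replicate 1 (0.0518) or control replicate 2 (0.0551), with 0.00924 to 0.0802 over all alternatives.

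For 4 of the uncalled genes of this group, HEXA, NPC2, NEU1 and GAA, the treated libraries disagreed with one another, arsenic trioxide replicate 3 being far above the other two. HEXA, a subunit of beta-hexosaminidase, had 3.93, 4.07 and 6.07 RPKM in treated libraries, against 3.69, 3.56 and 3.27 RPKM in controls. Of its exon bases 16.3% are shared with other annotated genes. NPC2, which carries cholesterol inside the lysosome, had 2.84, 2.95 and 4.73 RPKM in treated libraries, against 2.54, 2.87 and 2.11 RPKM in controls. NEU1, the lysosomal sialidase, had 7.25, 4.99 and 10.8 RPKM in treated libraries, against 8.12, 5.36 and 5.50 RPKM in controls. The groups of NPC2 and NEU1 overlapped, and those of HEXA did not. None passed (log2 fold changes 0.32, 0.34 and 0.21, limma-trend adjusted p = 0.193, 0.224 and 0.591), and without arsenic trioxide replicate 3 the value of NEU1 was -0.04. GAA, the acid glucosidase of glycogen, had 3.33 RPKM in that library and as little as 1.97 RPKM in the other treated libraries, against 2.87, 2.27 and 1.88 RPKM in controls. Its groups overlapped, as did those of GUSB, beta-glucuronidase, and neither was called (log2 fold changes 0.04 and -0.08).

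Of the membrane proteins NPC1 alone rose. NPC1, the sterol transporter that exports cholesterol from the lysosome (chromosome 18, 23506184 to 23586898), had 8.08, 7.24 and 8.63 RPKM in treated libraries, against 4.49, 3.96 and 4.33 RPKM in controls. The groups were widely separated (log2 fold change 0.77, standard error 0.10, adjusted p = 0.00307 in limma-trend, a 1.88-fold ratio of means). NPC2, its soluble partner, was not called, as given above. LAMP1, a major glycoprotein of the lysosome membrane, had 67.6, 59.5 and 62.2 RPKM in treated libraries, against 52.6, 54.2 and 58.0 RPKM in controls. These did not overlap, yet the difference was small and missed the threshold (log2 fold change 0.20, limma-trend adjusted p = 0.0732). With upper quartile scaling and with limma-voom it passed (adjusted p = 0.0428 and 0.0437), and the highest adjusted p of any alternative was 0.216. LAMP2, its relative, was at 39.2 ± 1.40 RPKM in treated and 38.1 ± 3.22 RPKM in control cells (SD, n = 3 each), a log2 fold change of 0.04 (95% interval -0.13 to 0.22). LAMTOR1, the anchor of the Ragulator complex that brings mTORC1 to the lysosome, was at 0.15 (-0.07 to 0.36).

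MCOLN1, the lysosomal calcium channel known to feed back on TFEB through calcineurin (chromosome 19, 7522626 to 7534009), was the gene of the membrane group with a lower level. It had 0.827, 0.752 and 1.60 RPKM in treated libraries, against 2.06, 1.84 and 1.82 RPKM in controls, on 73, 63 and 139 reads in treated and 165, 141 and 163 reads in control libraries. The treated replicate 3 lay between the other treated libraries and the controls, and the groups did not overlap. With a log2 fold change of -0.52 (standard error 0.18) it missed the threshold (limma-trend adjusted p = 0.0769). It passed without arsenic trioxide replicate 3 (log2 fold change -0.70, adjusted p = 0.0225) and with limma-voom (-0.93, adjusted p = 0.0125), its adjusted p reached 0.196 in other alternatives, and the authors' deposited table lists -0.87 with an adjusted p of 0.00549.

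All 25 genes that were tested and not called had a 95% interval within 2-fold in either direction, and in 20 of them the interval lay within 1.5-fold. These intervals are of log2 of RPKM + 1, which understates the change of low genes, and do not bound the fold of such a gene: for MCOLN1 limma-voom gave -0.93, as stated above. The authors' deposited table gives an adjusted p under 0.05 to 12 of the 40 genes in the higher and 4 in the lower direction, against 13.3% and 16.0% of all tested genes. All 13 genes called here are among these 16, with the same sign.

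The rest of the lysosomal system was followed in 6 further lists. Their counts stand beside 12.0% of all tested genes called higher and 13.4% called lower. Among further V-ATPase genes 1 of 11 tested rose and 2 fell. NCOA7, a protein that binds the V-ATPase, had 10.0, 9.50 and 8.10 RPKM in treated libraries, against 2.91, 3.37 and 2.95 RPKM in controls (log2 fold change 1.32, limma-trend adjusted p = 0.000791). VMA21, an assembly factor of the pump, fell to 40.4 ± 2.33 RPKM in treated cells, against 59.1 ± 2.08 RPKM in control cells (SD, n = 3 each, log2 fold change -0.54). TCIRG1, the a subunit known from osteoclasts, fell to 14.7 ± 1.85 RPKM in treated cells, against 21.5 ± 0.965 RPKM in control cells (-0.52). So of the alternative a subunits tested, 1 rose, 1 fell and 1 was not called. Of further cathepsins and their inhibitors 1 of 7 tested rose, the cystatin gene CSTA (0.81), an inhibitor of cysteine cathepsins, and 0 fell. Of further hydrolases 1 of 24 tested rose and 2 fell, and the glycosidase NAGLU was among those that fell (-0.62). Of these hydrolases 0 were higher when any 1 library other than arsenic trioxide replicate 2 was omitted, and 1 was lower when control replicate 3 was omitted.

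Further membrane proteins had 9 of 30 tested higher and 1 lower, while their median log2 fold change was 0.01. SLC48A1, which moves haem out of endolysosomes, had 38.9, 34.7 and 44.4 RPKM in treated libraries, against 7.59, 7.58 and 7.41 RPKM in controls. This 5.23-fold ratio of means (log2 fold change 2.24, standard error 0.09, adjusted p = 0.000114 in limma-trend) exceeded that of any of the 40 genes. CLCN3, a chloride-proton exchanger (0.68), ABCD4, which works in lysosomal export of cobalamin (0.62), and LAPTM5, a lysosomal protein of blood cells (0.46), also rose. The count of lower genes was 3 without arsenic trioxide replicate 3. Of the genes of mTORC1, Ragulator, Rag and folliculin that act on TFE factors, 2 of 29 tested rose and 5 fell. TSC1, a regulator of mTORC1, rose (0.52). YWHAH, a 14-3-3 protein (-0.51), NPRL2, a part of the GATOR1 complex (-0.50), and LAMTOR4, a part of Ragulator (-0.29), fell. LAMTOR4 lost its call without arsenic trioxide replicate 1 or 2 or control replicate 2 or 3 (limma-trend adjusted p = 0.0716 to 0.0868). In this list 2 genes were lower when any 1 of these 4 libraries was left out, and 1 was higher without arsenic trioxide replicate 1 or 3 or control replicate 2 or 3.

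In the list for delivery of hydrolases to lysosomes 9 of 30 tested rose and 3 fell. IGF2R, the large mannose 6-phosphate receptor, had 41.7, 38.9 and 43.7 RPKM in treated libraries, against 31.9, 28.0 and 29.1 RPKM in controls (log2 fold change 0.47). GNPTG, a subunit of the enzyme that makes the mannose 6-phosphate tag (0.92), and AP3M1, a subunit of the AP-3 sorting adaptor (0.46), rose with it. LYST, a regulator of lysosome and granule size, fell to 9.51 ± 1.39 RPKM in treated cells, against 22.9 ± 3.72 RPKM in control cells (SD, n = 3 each, log2 fold change -1.18, limma-trend adjusted p = 0.0024). The count of lower genes was 1 without arsenic trioxide replicate 2 or control replicate 2.

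**Figure D4:**
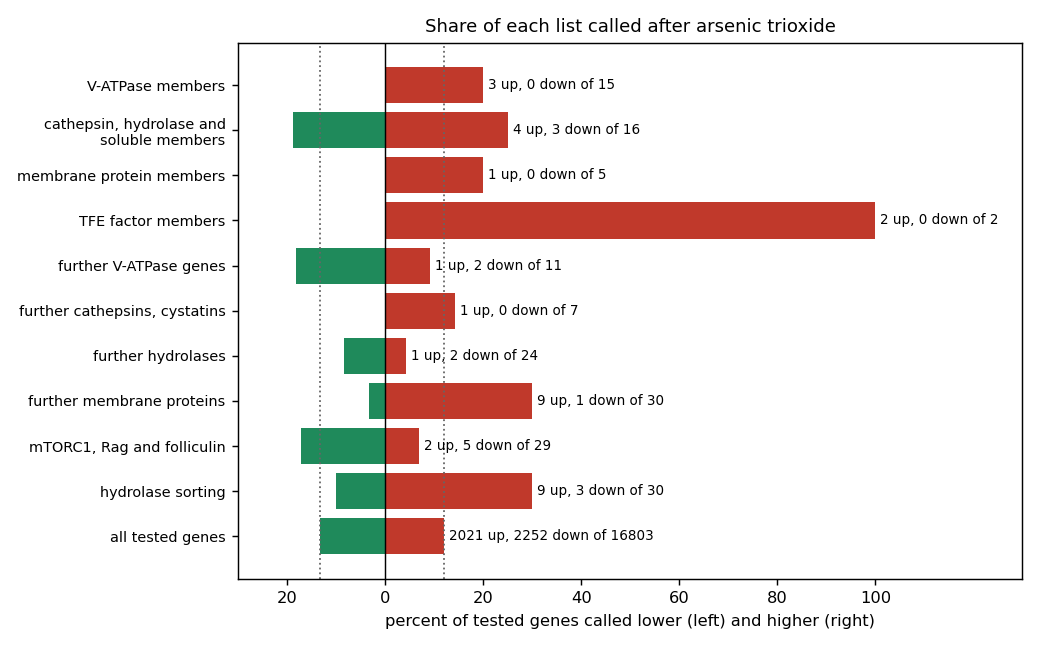
Percent of the tested genes of each list called higher (red, to the right) and lower (green, to the left) after arsenic trioxide, with the counts beside each bar. The dotted lines mark the shares of all tested genes, 12.0% higher and 13.4% lower; the bar of the TFE factors stands for 2 tested genes, TFE3 and MITF.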

How the data were processed

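NB4 RNA was depleted of ribosomal RNA and sequenced from unstranded libraries, per the labels' protocols. HISAT2 2.1.0, HTSeq and DESeq2 on hg38 are named in the submitters' processing notes, and the file headers mark duplicates as removed. The authors deposited RPKM per gene, a unit read here from the values, and beside it their own comparison: a mean signal, a log2 fold change, a test score and p-values, per the file headers. Here log2 of RPKM + 1 entered limma 3.58.1 (R 4.3.3) in trend mode, with a term for treatment and a minimum mean of 1 RPKM. Exon lengths of GENCODE 29 turned RPKM back into whole reads (tolerance 0.01) for 93.0% of genes, and for 100.0% once the deposited mean settled the length. Listed genes have at least 21 reads over the 6 libraries, and 3 reads in 1 kb of exon are 0.133 to 0.155 RPKM, a floor for counting error only. Libraries of a group differed by a chi-square of 5.51 to 13.6 per degree of freedom, so none is a copy. Genes, lists and tests were chosen with earlier results of these data known. All 40 genes are named, and of each further list up to 4 called genes with the smallest p-values, apart from a few genes that are not reported here. Alternatives were other scalings, no filter, other pseudocounts, limma-voom on the recovered reads, the replicate number as a block, and the omission of 1 or 2 libraries.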

Additional observations from a re-analysis of the deposited data

How the results depend on the processing

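Across 14 alternatives, 6 of the 13 called genes kept their call in each and none of the 13 changed sign, while 5 of the 25 uncalled genes were called in some setting. With limma-voom the membrane proteins had 2 higher and 1 lower. The further lists then had 3 higher V-ATPase genes, 3 higher hydrolases, 4 lower membrane proteins, 4 higher genes of the mTORC1 arm and 5 lower sorting genes. Upper quartile scaling gave 5 higher V-ATPase genes, 2 higher membrane proteins, 1 lower gene among the 40, a cathepsin, and 3 lower genes of the mTORC1 arm. No filter gave 2 higher genes in the list of further cathepsins and cystatins. Correlations of deviations between samples of the same replicate number were -0.09, 0.15 and -0.08. The largest of any pair was 0.22, for arsenic trioxide replicate 3 and control replicate 1. These values cannot show whether the cultures were paired, which is not stated. Under a replicate block, 1 of the 40 genes was lower, again a cathepsin, 1 TFE factor was higher, 0 further hydrolases were higher and 2 genes of the mTORC1 arm were lower, and all tested genes gave 1460 higher and 1616 lower. Leaving out arsenic trioxide replicate 3 and control replicate 1 together, chosen after seeing the data, gave 1200 higher and 1484 lower of all tested genes. Of the 40 it gave 0 lower, with 0 cathepsins among them, and 1 higher TFE factor. Of the further lists it gave 1 lower gene among cathepsins and cystatins, 0 higher and 1 lower hydrolase, 3 higher and 2 lower membrane proteins and 4 higher sorting genes. Leaving out 1 library at a time gave 1331 to 1525 higher and 1427 to 1908 lower of all tested genes, the fewest higher without arsenic trioxide replicate 1 (1331) or control replicate 3 (1341) and the fewest lower without control replicate 2 (1427) or 3 (1487). Of the 40 it gave 6 to 10 higher and 0 to 3 lower: V-ATPase 1 to 3 higher, cathepsins and soluble proteins 3 to 5 higher and 0 to 2 lower, membrane proteins 0 to 1 lower, TFE factors 1 to 2 higher. In the further lists it gave 0 to 1 lower cathepsins and cystatins, 0 to 1 higher and 1 to 2 lower hydrolases, 6 to 7 higher and 1 to 3 lower membrane proteins, 1 to 2 higher and 2 to 4 lower mTORC1 arm genes, and 6 to 7 higher and 1 to 3 lower sorting genes. Signs turned only among uncalled genes. With 1 library left out the log2 fold change was -0.065 to 0.073 for ATP6V0A2, -0.044 to 0.085 for ATP6V0B, -0.015 to 0.14 for ATP6V1E1, -0.087 to 0.013 for ATP6AP1, -0.031 to 0.026 for ATP6AP2, -0.0073 to 0.16 for CTSZ, -0.13 to 0.15 for GAA, -0.15 to 0.0017 for GUSB, -0.039 to 0.45 for NEU1 and -0.025 to 0.091 for LAMP2. With both libraries left out ATP6V0A2 was at -0.10, ATP6V1E1 at -0.017, GAA at -0.017 and LAMP2 at -0.018, and with upper quartile scaling ATP6AP2 was at 0.035. The causes of these shifts were not tested. At 63 to 165 reads per library, MCOLN1 was called with limma-voom or without arsenic trioxide replicate 3, and missed otherwise; whether depth played a part was not tested.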
